A study of Mus musculus with 6 samples.

Results

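Genes that encode NOD-like receptors, the inflammasomes built on them and the proteins of lytic cell death were examined in bone marrow-derived macrophages (BMDMs) of mice with and without a macrophage deletion of PKM2, a pyruvate kinase isoform of glycolysis. The group holds 38 genes out of 23935 gene symbols in the tables. They were taken by symbol from a list that applies no threshold to measured values but was drawn up with earlier results of these data known. RNA of 3 PKM2FL/FL and 3 PKM2ΔMAC cultures was sequenced, with 1 library per mouse. PKM2FL/FL mice carry the floxed Pkm allele alone. PKM2ΔMAC mice carry the same floxed allele together with LysM-Cre, a recombinase placed in the Lyz2 locus that acts in macrophages, monocytes and neutrophils, and the study names PKM2FL/FL mice as their control littermates. Bone marrow of both genotypes was grown in M-CSF for 7 days. All 6 cultures are labelled as having then been primed for 16 h, with LPS at 10 ng/mL together with IFN-γ at 25 ng/mL. The series has no unprimed culture, and the age and sex of the mice used for these libraries are not given in the sources used here.

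NOD-like receptors are cytosolic proteins that detect bacterial products or cell damage. Some, such as NOD1 and NOD2, signal through the kinase RIPK2 to NF-κB, while others assemble an inflammasome, a platform on which the adaptor ASC (gene Pycard) recruits caspase-1. Caspase-1 matures IL-1β and IL-18 and cleaves gasdermin D, whose fragment forms pores in the plasma membrane, and NINJ1 then ruptures the membrane. Necroptosis is a separate lytic death that runs through RIPK1, RIPK3 and the pore-forming protein MLKL and is held in check by caspase-8 and by IAP ubiquitin ligases.

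Total counts were between 49957449 and 54524651 per library, so that 3 counts, which a count of 0 still allows, corresponded to between 0.0546 and 0.0604 CPM. CPM are counts scaled to a common library total by TMM factors, and this limit covers counting error only. Pkm stood at 1714, 1698 and 1705 CPM in the PKM2FL/FL libraries and at 987, 1212 and 1005 CPM in the PKM2ΔMAC libraries, or 62.6% of the PKM2FL/FL mean (log2 fold change -0.68, SE 0.08, edgeR adjusted p = 0.00913). Gene-level counts hold the PKM1 and PKM2 transcripts together, and the call of Pkm was lost when any 1 of the PKM2FL/FL libraries was left out (adjusted p between 0.0754 and 0.0993). Lyz2, the site of the Cre insertion, was at 0.16% of its PKM2FL/FL level, and the number of Cre copies in these mice is not given in the sources used here. Several inducible targets of LPS and IFN-γ were low in all 6 libraries, with Nos2 between 2 and 26 counts, Il12b between 2 and 6 counts and Cxcl9 between 22 and 50 counts. Cxcl10 was between 2.44 and 5.55 CPM and Acod1 between 1.63 and 4.27 CPM, with Acod1 at 59.3% of its PKM2FL/FL mean without overlap (edgeR adjusted p = 0.334). Irf1, also an IFN-γ target, was between 53.6 and 56.8 CPM. These priming genes were chosen after their values were seen, and the degree of priming was not tested. Summed macrophage markers were between 7591 and 8421 CPM in the 6 libraries, and 1 of the 8, Itgam, was called higher (log2 fold change 0.43, edgeR adjusted p = 0.00272). Adgre1 was higher without overlap and was not called (0.26, edgeR adjusted p = 0.236). Markers of neutrophils summed to between 22.1 and 53.8 CPM in PKM2FL/FL and between 96.2 and 181 CPM in PKM2ΔMAC libraries, with 6 of 10 genes higher without overlap and 0 called. Stromal markers were high in both genotypes, at between 5462 and 6943 CPM. No listed marker found in the tables was at 0 in every library. In bulk RNA, fewer cells of a type and less RNA per cell cannot be told apart, and the part of these cells in the results below was not tested.

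Of the 38 genes, 37 passed the filter on low counts and were tested. Pstpip1, the gene of a scaffold protein that binds pyrin, was called: it fell to 46.3% of its PKM2FL/FL level. The other 36 tested genes did not pass an adjusted p of 0.05, and their log2 fold changes lay between -0.42 for Naip1 and 0.37 for Gsdme. Over all 16516 genes tested, 0.412% were called in either direction and 0.127% were called lower. At an unadjusted p under 0.05 there were 6 of the 37 genes, against 9.83% of all genes. In CPM, libraries of the genotypes lay apart for 8 of the 37 genes. In 5 of them the PKM2ΔMAC libraries were lower, as in 8.32% of all genes, and in 3 they were higher, as in 8.92% of all genes. The median log2 fold change of the 37 genes was -0.028, beside a median of 0.00 over all genes.

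The precision of these estimates was high for most of the group. The 95% interval of the log2 fold change lay within 0.25 of 0 for 16 of the 37 genes (43.2%), within 0.5 for 31 (83.8%) and within 1 for 35 (94.6%). The corresponding shares over all genes tested were 36.8%, 59.5% and 78.0%. Besides Pstpip1, only Naip1 had an interval that reached past 1 in either direction. Among the 36 genes not called, 16 had an estimate above or at 0 and 20 had one below it. On the TPM scale, where the median of all genes was higher by between 0.046 and 0.067, 7 estimates just below 0 lay above it (Nlrp1a, Nlrp1b, Casp4, Gsdmd, P2rx4, Nek7 and Birc3).

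**Figure D1:**
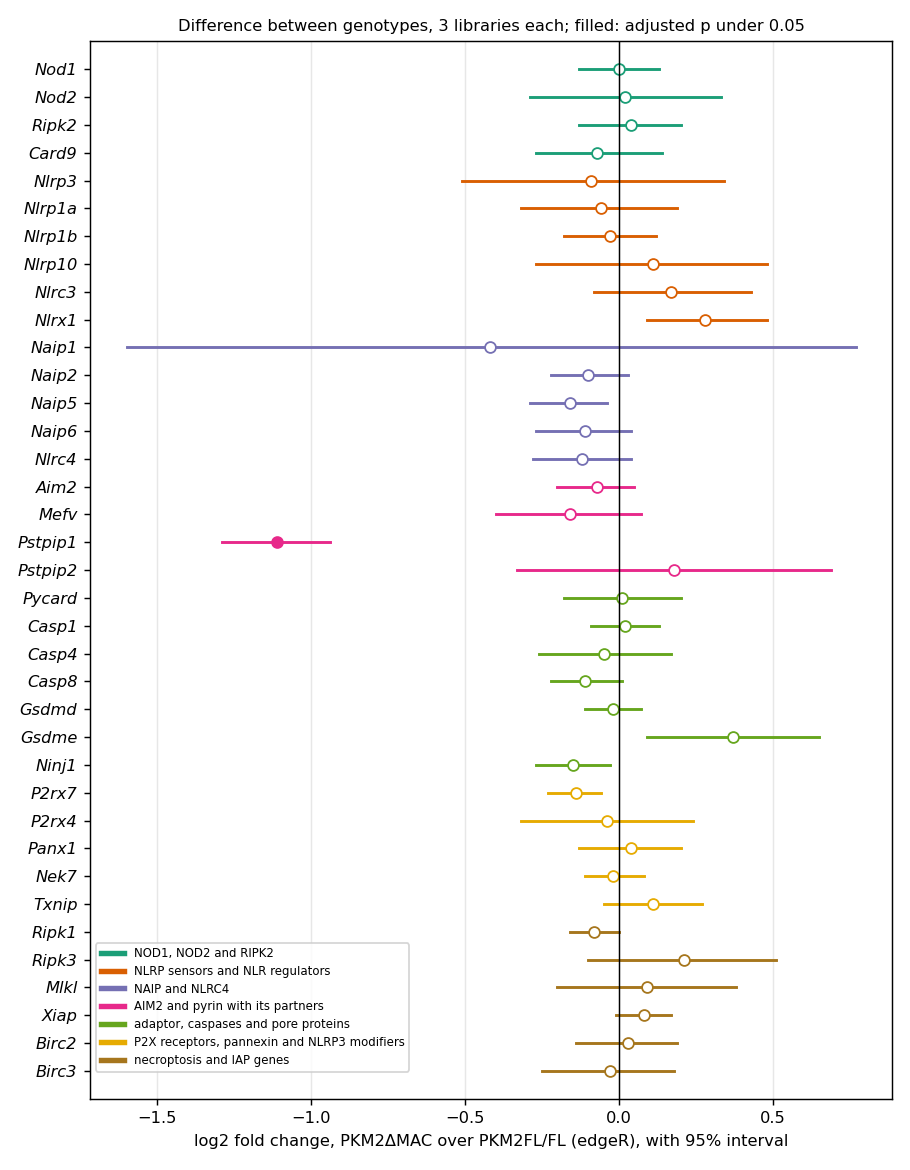
Log2 fold change of PKM2ΔMAC over PKM2FL/FL for the 37 tested genes, ordered by role, with approximate 95% intervals derived from the edgeR fit (3 libraries per genotype). The filled point is Pstpip1 at -1.11, and the interval of Naip1 is the widest.

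RNA levels spanned a wide range across the group. TPM, which divides counts by transcript length, allows levels of different genes to be set side by side. Over the 6 libraries the mean was 606 TPM for Ninj1, 403 TPM for Txnip, 119 TPM for P2rx4 and 113 TPM for Gsdmd. Casp1 at 85.1 TPM, Casp8 at 77.9 TPM and Card9 at 70.6 TPM followed. At the other end, Gsdme had 3.27 TPM, Nlrp10 3.17 TPM and Naip1 0.217 TPM. Nlrp12, a receptor described mainly in neutrophils and other myeloid cells, had 0, 0 and 2 counts in PKM2FL/FL and 2, 2 and 0 counts in PKM2ΔMAC libraries, which is at or below the limit that a count of 0 allows, and no fold was computed.

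**Figure D2:**
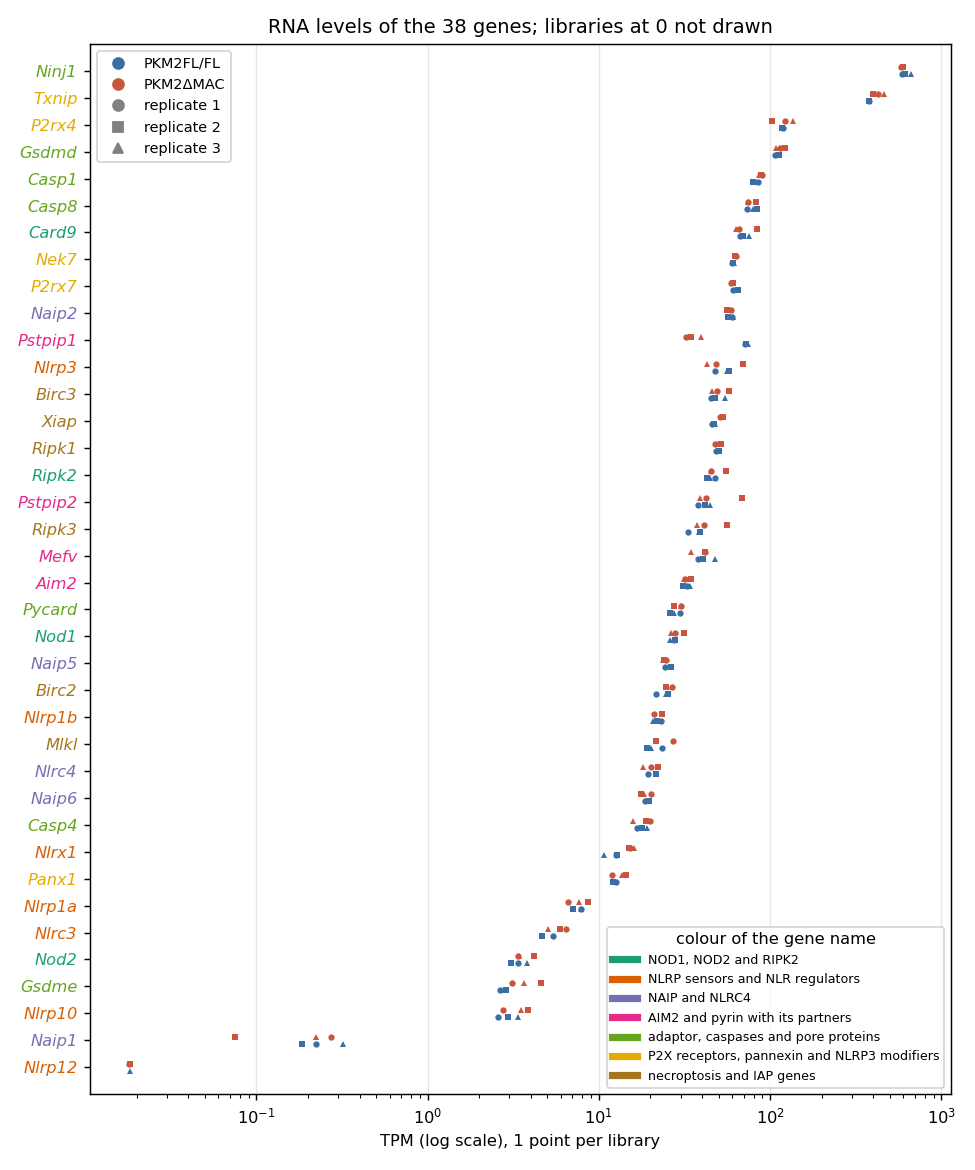
TPM of each of the 38 genes in the 6 libraries on a log axis, sorted by mean, with blue for PKM2FL/FL, red for PKM2ΔMAC, marker shape for the replicate and the colour of the gene name for its role. Levels run from 606 TPM for Ninj1 to 0.217 TPM for Naip1 and fewer than 3 counts per library for Nlrp12, and Pstpip1 is the gene whose colours separate most clearly.

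Among AIM2 and pyrin with its partners, Pstpip1 differed and the other 3 genes did not pass the test. PSTPIP1 is a cytoskeletal scaffold of haematopoietic cells that binds pyrin and PEST-type phosphatases. Its RNA was at 78.6, 78.3 and 82.0 CPM in the PKM2FL/FL libraries. In the PKM2ΔMAC libraries it was at 34.1, 34.8 and 41.8 CPM. The genotypes were far from overlapping, and the highest PKM2ΔMAC library was below every PKM2FL/FL library. Means were 79.7 ± 2.07 and 36.9 ± 4.23 CPM (SD, n = 3 each). The log2 fold change was -1.11 with an SE of 0.08 and a 95% interval of -1.29 to -0.94. The edgeR quasi-likelihood test gave an adjusted p of 0.000516 over all genes. The two-sided exact permutation test gave p = 0.10, the smallest value that 3 against 3 libraries allow. Pstpip1 was called under all 15 alternatives, with log2 fold changes between -1.21 and -1.02 and adjusted p between 1.72e-30 and 0.0117. No other gene of the tables overlaps its exons, and 0% of its 75-base transcript windows were shared with another gene.

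Mefv encodes pyrin, which senses inactivation of RhoA by bacterial toxins, and its RNA had means of 38.8 ± 4.62 and 34.7 ± 3.38 CPM in PKM2FL/FL and PKM2ΔMAC libraries, with a log2 fold change of -0.16 (interval -0.40 to 0.07). Aim2, a sensor of cytosolic DNA, had 32.6 ± 1.73 and 30.9 ± 0.615 CPM and a log2 fold change of -0.07 (interval -0.20 to 0.05). Pstpip2, a relative of Pstpip1 that restrains inflammation in mice, stood at 25.6, 27.4 and 30.1 CPM in PKM2FL/FL and at 27.1, 41.8 and 25.1 CPM in PKM2ΔMAC libraries. PKM2ΔMAC replicate 2 was high and the other 5 libraries were close together, and the log2 fold change of 0.18 had an interval of -0.33 to 0.69.

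Pstpip1 lies on the chromosome that carries the deleted gene. In the GENCODE annotation of mm10 it spans chr9:56089962-56128888 on the plus strand, and its start is 3.57 Mb from that of Pkm (chr9:59656368-59679375, plus strand). Of the 186 genes tested within 10 Mb of the start of Pkm, 9 were called (4.84%), 4 higher and 5 lower. Between 10 and 20 Mb the count was 6 of 153 (3.92%), beyond 20 Mb on the same chromosome 2 of 559 (0.358%), and elsewhere in the genome 51 of 15618 (0.327%). The distances and the split by side were chosen after the values were seen. The 9 include Pkm itself and Gm49759, which shares 767 exon bases with Pkm on the same strand. Apart from these, 13 of 190 genes were called by edgeR in the 20 Mb before the start of Pkm, the side of Pstpip1 (6.84%), and 0 of 147 in the 20 Mb after it. An unadjusted p under 0.05 was found for 55 genes before and 11 after, while DESeq2 called 28 and 2 and limma-trend on TPM called 8 and 0. The genotypes differ at Pkm, in the presence of Cre and in Lyz2, so the loss of PKM2, the Cre insertion with the loss of Lyz2 RNA and a difference in the chromosome around the allele cannot be told apart for Pstpip1 here. Other genes of the group on this chromosome, all on the side of Pstpip1, were not called. They were Nlrx1 at 15.4 Mb, Panx1 at 44.65 Mb, Birc3 at 51.81 Mb, Birc2 at 51.84 Mb, Casp4 at 54.35 Mb and Casp1 at 54.36 Mb.

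**Figure D3:**
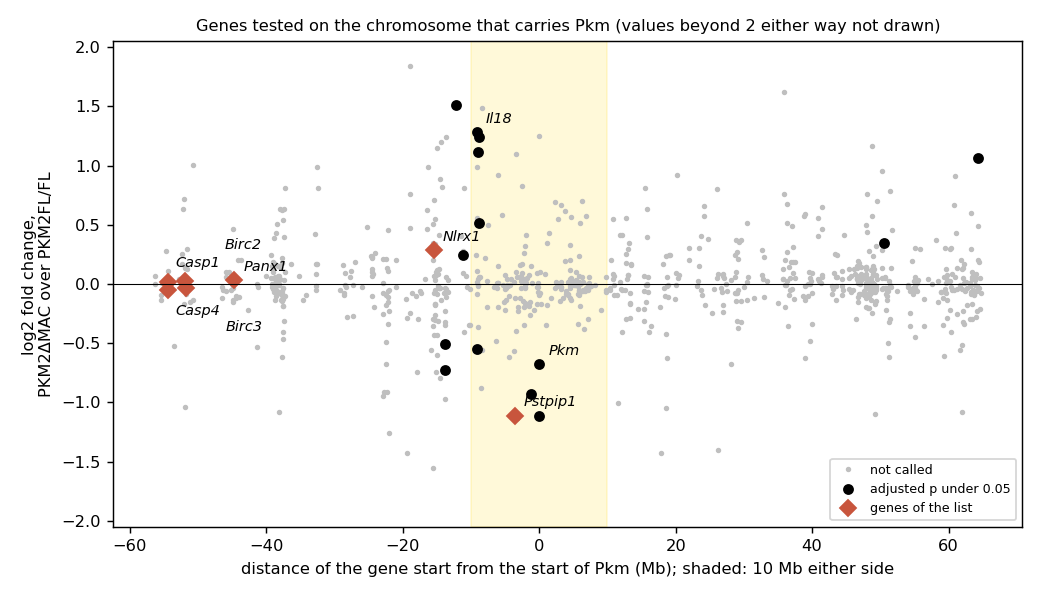
Log2 fold change of PKM2ΔMAC over PKM2FL/FL against the distance in Mb of each tested gene's start from that of Pkm on the same chromosome; black points passed an adjusted p of 0.05 and red diamonds are genes of the group. Within the shaded 10 Mb, 9 of 186 genes were called, Pstpip1 and Pkm among the lower ones and Il18 among the higher ones. Genes beyond the drawn range of fold changes are left out, among them the called genes C030014I23Rik (3.995) and Nxpe1-ps (-6.055).

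The sequence before the start of Pstpip1 is shown because it is the promoter of the called gene, with 1 motif marked. PU.1 is an ETS factor that myeloid genes commonly use, and capitals mark the core AGGAAGT, or ACTTCCT where the match lies on the opposite strand. The 236 bases from RefSeq (GRCm38.p6) at chr9:56089726-56089961, plus strand, end at the base before the annotated start, and the match lies at positions -33 to -27 from it.
Pstpip1: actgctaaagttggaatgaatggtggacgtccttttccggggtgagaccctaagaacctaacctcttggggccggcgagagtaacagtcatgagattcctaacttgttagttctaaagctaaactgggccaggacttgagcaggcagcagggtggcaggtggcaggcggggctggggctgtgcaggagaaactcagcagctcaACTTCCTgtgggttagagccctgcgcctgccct

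Promoter windows of 250 bases before to 50 bases after the start were found in the RefSeq table for 34 of the 38 genes. AGGAAGT was read on both strands and occurred in 11 of the 34 (32.4%), against 2886 of 27025 genes (10.7%). The matches were in Aim2, Card9, Naip2, Naip5, Nlrc4, Nlrp1a, Nlrp1b, Nlrx1, P2rx7, Pstpip1 and Pycard. They include paralogs (Naip2 with Naip5, and Nlrp1a with Nlrp1b), so the 11 are not all separate occurrences. The 27025 genes were not limited to genes expressed in these cultures, so the contrast cannot be taken as particular to this group. The ISRE core GAAANNGAA, also read on both strands, was in 4 of 34 (11.8%) against 9.76% of all genes. A match is a run of letters and not a measured site of binding, and 10 of the 11 genes with the PU.1 core were not called. The windows of 27 bases around the match are shown for 6 of these genes and are printed along the strand of the gene. Naip2 with Naip5, and Nlrp1a with Nlrp1b, are paralogs that can be set beside each other. Pycard and Card9 are shown as further examples and are not paralogs.
Naip2, chr13:100202118-100202144, minus strand: gcctggtgccACTTCCTgttcattttc
Naip5, chr13:100247339-100247365, minus strand: gcctggtgccACTTCCTatttgctttc
Nlrp1a, chr11:71144770-71144796, minus strand: cagtgttcagAGGAAGTacatctgccg
Nlrp1b, chr11:71230812-71230838, minus strand: cagtgtttagAGGAAGTgcatctgtgc
Pycard, chr7:127993895-127993921, minus strand: tccccaccccACTTCCTccaccaaccc
Card9, chr2:26360907-26360933, minus strand: cacatcaatcAGGAAGTgcacagcctc
The Naip2 and Naip5 windows open with the same run of letters up to the end of the match, and the Nlrp1a and Nlrp1b windows are also closely alike. The RNA of these 4 genes did not pass the test, with log2 fold changes of -0.10, -0.16, -0.06 and -0.03 in the order shown.

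None of the 4 genes of the NOD1 and NOD2 branch was called. NOD1 and NOD2 bind fragments of bacterial peptidoglycan and signal through RIPK2, and CARD9 links them and the C-type lectin receptors to downstream kinases. Card9 was at 66.7, 69.3 and 75.3 TPM in PKM2FL/FL and at 66.1, 83.2 and 63.0 TPM in PKM2ΔMAC libraries, and PKM2ΔMAC replicate 2 was the highest of the 6 (log2 fold change -0.07, interval -0.27 to 0.14). Leaving that library out gave -0.17 (unadjusted p = 0.0154, edgeR adjusted p = 0.233), whereas leaving out replicate 3 gave -0.016 for PKM2FL/FL and -0.009 for PKM2ΔMAC, and log2(TPM + 1) gave -0.002. The intervals of Nod1 (-0.13 to 0.13) and Ripk2 (-0.13 to 0.20) were narrower. Nod2, at 3.54 TPM the lowest of the 4, had an interval of -0.29 to 0.33.

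Among the NLRP sensors and the NLR regulators, 6 of 7 genes were tested and none was called. NLRP3 responds to potassium efflux, crystals and ATP, and its transcript is known to be induced by priming. Nlrp3 RNA was at 56.1, 66.0 and 65.3 CPM in PKM2FL/FL libraries. In the PKM2ΔMAC libraries it was at 53.9, 73.7 and 48.5 CPM. PKM2ΔMAC libraries held both the highest and the lowest of the 6 values, the log2 fold change was -0.09 with an SE of 0.17, and leaving out PKM2ΔMAC replicate 3 gave 0.03, while leaving out replicate 2 gave -0.28 (unadjusted p = 0.00752, edgeR adjusted p = 0.161). With 3 mice per genotype, the interval was -0.51 to 0.34 and left the direction of any change of Nlrp3 unresolved.

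Nlrx1, a mitochondrial NOD-like receptor that dampens antiviral and NF-κB signalling, was at 20.8, 20.8 and 17.7 CPM in PKM2FL/FL and at 24.0, 22.5 and 25.7 CPM in PKM2ΔMAC libraries. All 3 PKM2ΔMAC values were above all 3 PKM2FL/FL values. The log2 fold change of 0.28 (SE 0.08) had an unadjusted p of 0.00892 and an edgeR adjusted p of 0.324, so the difference did not pass. Nlrx1 starts 15.4 Mb before the start of Pkm, on the side of Pstpip1. In the 20 Mb on that side, 55 of 190 genes had an edgeR unadjusted p under 0.05, against 9.83% of all genes. The limit given for Pstpip1 therefore holds for Nlrx1 as well. Nlrx1 shares 683 exon bases with a gene on the opposite strand, Gm10686, which had a mean of 21.8 counts against 1150 for Nlrx1. Nlrp1a and Nlrp1b, mouse forms of the sensor NLRP1, were at 7.62 and 22.2 TPM with log2 fold changes of -0.06 and -0.03. Nlrp10 (0.11) and Nlrc3 (0.17), a negative regulator of T cell and innate signalling, overlapped between genotypes.

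NAIP proteins bind flagellin and the rod and needle proteins of bacterial secretion systems and hand them to NLRC4. All 5 genes of this branch had estimates below 0, between -0.42 and -0.10 on the log2 scale, and none was called. The sign held in every alternative in which the gene was fitted, but the size did not: Naip2 went from -0.10 to -0.02 on log2(TPM + 1) and to -0.05 when PKM2ΔMAC replicate 2 was left out. Naip2, the highest of the branch at 58.6 TPM, was at 83.5, 77.7 and 84.4 CPM in PKM2FL/FL and at 79.0, 71.4 and 79.4 CPM in PKM2ΔMAC libraries, with overlap. Naip5, a flagellin sensor, was at 36.3, 38.7 and 39.5 CPM in PKM2FL/FL and at 35.5, 32.7 and 34.1 CPM in PKM2ΔMAC libraries, without overlap. Its log2 fold change of -0.16 (SE 0.06) had an unadjusted p of 0.0172 and an edgeR adjusted p of 0.388. The unadjusted p of Naip5 was 0.157 on log2(TPM + 1), with an estimate of -0.09, and it was 0.0577 and 0.0691 when PKM2FL/FL replicate 2 or 3 was left out.

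Naip6 and Nlrc4 had log2 fold changes of -0.11 and -0.12 with overlapping libraries. Naip1 had between 0.109 and 0.512 CPM per library and an interval of -1.60 to 0.77. The Naip genes are near-identical copies of one another in part: between 10.7% (Naip2) and 23.8% (Naip5) of the 75-base windows of the 4 genes occur in another gene. How reads with several matches were counted is not given in the sources used here, so the 4 values are uncertain, and the part of shared reads in their common direction was not tested.

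Casp1 and Gsdmd, of the shared machinery of pyroptosis, had narrow intervals around 0. Casp1, the inflammasome protease, had means of 73.8 ± 3.65 and 74.9 ± 2.72 CPM (SD, n = 3 each), and its log2 fold change of 0.02 had an interval of -0.09 to 0.13. Gsdmd, the substrate that forms the pore, had means of 75.4 ± 1.73 and 74.3 ± 2.24 CPM and an interval of -0.11 to 0.07. For these genes the data limit a difference in RNA to well under 0.25 on the log2 scale, which says nothing of cleavage of the proteins. Pycard (interval -0.18 to 0.20), Casp4, the caspase that binds cytosolic LPS (-0.26 to 0.17), and Casp8, the protease that links apoptosis, pyroptosis and necroptosis (-0.22 to 0.01), were also not called.

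Ninj1, which ruptures the plasma membrane after pores have formed, had the highest TPM of the 38 genes. It was at 265.9, 270.9 and 300.9 CPM in PKM2FL/FL and at 250.5, 246.8 and 257.2 CPM in PKM2ΔMAC libraries, so that the genotypes did not overlap. The log2 fold change was -0.15 (SE 0.05), with an unadjusted p of 0.0199 and an edgeR adjusted p of 0.406. It was -0.09 without PKM2FL/FL replicate 3 (edgeR unadjusted p = 0.0815) and -0.076 on log2(TPM + 1) (limma-trend unadjusted p = 0.206). Gsdme, a gasdermin cleaved by caspase-3, was at 9.68, 10.3 and 10.2 CPM in PKM2FL/FL and at 10.9, 15.3 and 12.9 CPM in PKM2ΔMAC libraries. The PKM2ΔMAC libraries were again apart, but they spread from 10.9 to 15.3 while the PKM2FL/FL libraries were close together. Its log2 fold change of 0.37 (SE 0.12) was the highest estimate of the group and did not pass (unadjusted p = 0.0153, edgeR adjusted p = 0.378). Leaving out PKM2ΔMAC replicate 2 gave 0.24, and leaving out replicate 1 of that genotype gave 0.49 (unadjusted p = 0.00219, edgeR adjusted p = 0.216).

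Genes upstream of NLRP3 included P2X receptors for extracellular ATP, the channel pannexin-1, the kinase NEK7 that binds NLRP3, and TXNIP, a thioredoxin-binding protein that is also a known sensor of glucose metabolism. P2rx7, the receptor through which ATP triggers NLRP3, was at 105.1, 108.5 and 107.5 CPM in PKM2FL/FL and at 96.8, 94.5 and 99.5 CPM in PKM2ΔMAC libraries. The spread within each genotype was small and the libraries were apart. The PKM2ΔMAC mean was 90.6% of the PKM2FL/FL mean, with a log2 fold change of -0.14 (SE 0.04), an unadjusted p of 0.00478 and an edgeR adjusted p of 0.246. On log2(TPM + 1) its estimate was -0.07 (limma-trend unadjusted p = 0.118).

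Txnip was at 341.6, 333.2 and 338.8 CPM in PKM2FL/FL and at 365.8, 324.7 and 400.5 CPM in PKM2ΔMAC libraries. PKM2ΔMAC replicate 2 was below all PKM2FL/FL libraries and the other two were above them (log2 fold change 0.11, interval -0.05 to 0.27). The estimate was 0.18 without replicate 2 (unadjusted p = 0.00128, edgeR adjusted p = 0.0634) and 0.03 without replicate 3. P2rx4 showed the same order within PKM2ΔMAC, with 236.5, 188.7 and 265 CPM against a PKM2FL/FL mean of 236.6 ± 3.41 CPM. Nek7 had an interval of -0.11 to 0.08 and Panx1 one of -0.13 to 0.20.

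In the necroptosis and IAP group, 6 of 6 genes were tested and none was called. Ripk1, the kinase at the branch between NF-κB signalling and death, was at 116.5, 118.1 and 119.3 CPM in PKM2FL/FL and at 109.3, 112.3 and 113.8 CPM in PKM2ΔMAC libraries, without overlap. Its log2 fold change was -0.08 (SE 0.04, edgeR adjusted p = 0.533), and on log2(TPM + 1) it was -0.005 (limma-trend unadjusted p = 0.912). Ripk1 shares 241 exon bases with Serpinb6a on the opposite strand, which had a mean of 20500 counts against 6010 for Ripk1, and whether the counts separate strands is not given in the sources used here.

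Xiap, the IAP that blocks caspases and carries the RIPK2 signal, was at 124.8, 125.8 and 129.6 CPM in PKM2FL/FL and at 132.3, 131.2 and 139.0 CPM in PKM2ΔMAC libraries. These libraries were apart too, by a log2 fold change of 0.08 (SE 0.04, edgeR adjusted p = 0.542). The estimate of Xiap was 0.151 on log2(TPM + 1) (limma-trend unadjusted p = 0.0081, adjusted p = 0.273). Birc3, which encodes cIAP2 and is a known NF-κB target, was at 65.0, 67.0 and 78.6 CPM in PKM2FL/FL and at 67.2, 75.5 and 63.4 CPM in PKM2ΔMAC libraries. The values of Birc3 were mixed between genotypes (log2 fold change -0.03, interval -0.25 to 0.18). Ripk3 (0.21), Mlkl (0.09) and Birc2 (0.03) had intervals that held 0.

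**Figure D4:**
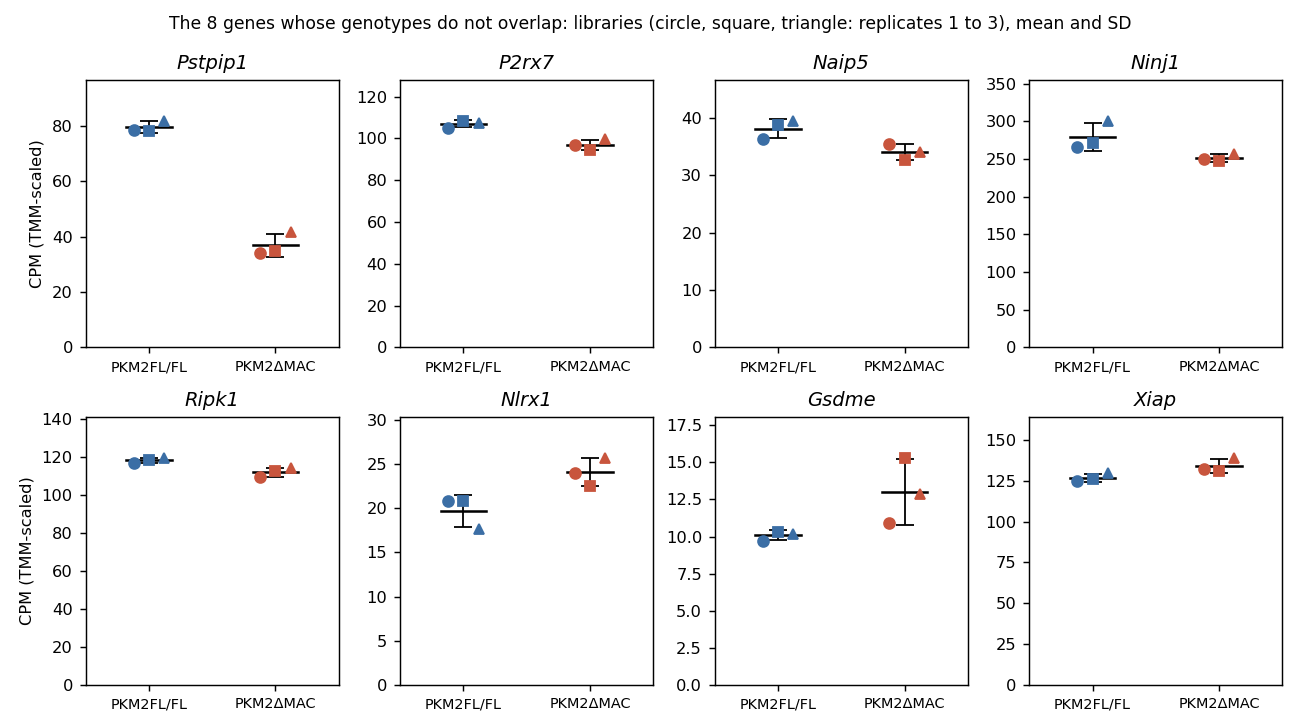
CPM in each library, with mean and SD over 3 libraries per genotype, for the 8 genes whose PKM2FL/FL and PKM2ΔMAC libraries did not overlap; each axis starts at 0. Pstpip1 falls from a mean of 79.7 to 36.9 CPM, whereas the PKM2ΔMAC means of the other 7 genes are between 89.4% and 129% of those in PKM2FL/FL.

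The spread between mice was larger in PKM2ΔMAC, in this group as over all genes. The median coefficient of variation of the 37 genes was 6.02% in PKM2FL/FL and 8.28% in PKM2ΔMAC libraries, and it was larger in PKM2ΔMAC for 26 of 37 genes (70.3%). Over all genes tested the medians were 6.61% and 9.25%, and the value was larger in PKM2ΔMAC for 63.3%. PKM2ΔMAC replicate 2 held the highest value of the 6 libraries for 10 genes and the lowest for 10 others. PKM2FL/FL replicate 3 held the highest value for 13 genes and the lowest for 1. In PKM2ΔMAC replicate 2, Pstpip2, Ripk3, Gsdme and Nlrp3 were high and P2rx4 and Naip1 were low. Without this library 12 of the 37 genes had an unadjusted p under 0.05, against 13.3% of all genes, and the called gene was again Pstpip1 alone. The number of genes called over the whole table rose from 68 to 299 without it.

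**Figure D5:**
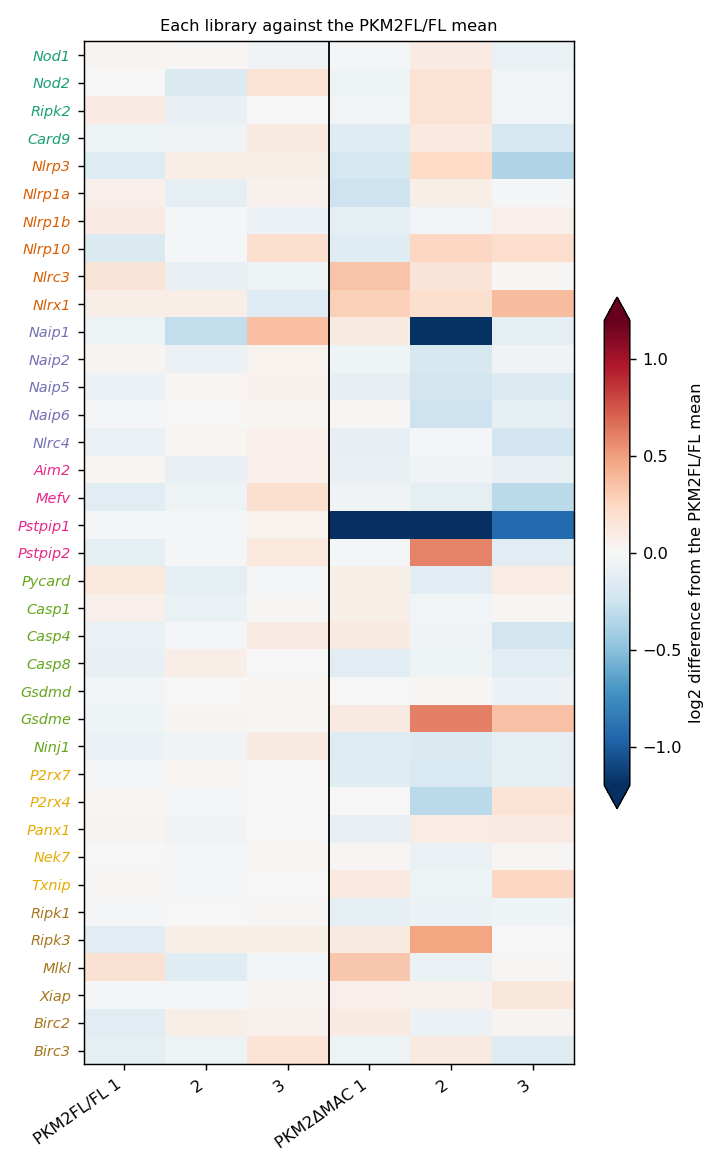
Log2 difference of each library from the PKM2FL/FL mean for the 37 tested genes, with red for higher and blue for lower; the colour scale ends at 1.2 in both directions. Pstpip1 is blue in all 3 PKM2ΔMAC libraries, and Pstpip2, Gsdme and Ripk3 are at their reddest in PKM2ΔMAC replicate 2.

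Genes that act with the group were read from a list of 57 adaptors, ligases, guanylate-binding proteins, caspases, cytokines and membrane repair proteins, of which 54 were tested. Of these, 1 was called higher and 0 were called lower, and 4 had an unadjusted p under 0.05, beside 0.412% called and 9.83% at an unadjusted p under 0.05 over all genes. Il18, the cytokine that caspase-1 matures, was at 3.09, 3.87 and 4.02 CPM in PKM2FL/FL and at 9.08, 8.32 and 9.37 CPM in PKM2ΔMAC libraries. It rose in every PKM2ΔMAC library, with a log2 fold change of 1.29 (SE 0.13) and an edgeR adjusted p of 0.00445, and it was called under all 15 alternatives. Il18 spans chr9:50554827-50581840 and starts 9.1 Mb from Pkm, inside the shaded range of the plot of distances, so the limit given for Pstpip1 holds for it as well.

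The other 53 partner genes had log2 fold changes between -0.29 and 0.28, and the median of the 54 was 0.003. Il1b, the other cytokine matured by caspase-1, had means of 2.26 and 2.24 CPM in PKM2FL/FL and PKM2ΔMAC libraries and an edgeR adjusted p of 0.998. At this low level the 95% interval of its log2 fold change was wide, from -0.58 to 0.57. Ciita, the master regulator of MHC class II genes, and Tnfaip3, the NF-κB inhibitor A20, were called only when PKM2ΔMAC replicate 2 was left out, in addition to Il18.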

How the data were processed

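RNA-seq of 6 BMDM libraries was read from 2 tables that the authors deposited: raw read counts per gene symbol, and TPM of the same 23935 symbols, which the authors scaled by gene length and library. The submitters' processing notes name mm10, FastQC 0.12.1, Trim Galore 0.6.10, HISAT2 2.2.1, SAMtools 1.19.2 and Subread 2.0.6. Annotation, strand setting and treatment of multiply mapped reads are not given in the sources used here.

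Counts were fitted with edgeR 4.0.16 (quasi-likelihood, robust, TMM, filterByExpr; R 4.3.3, limma 3.58.1), which left 16516 genes with a common dispersion of 0.0128. Genotype was the only term, as the study names no software for this comparison. A gene was called at an adjusted p (Benjamini-Hochberg) below 0.05. Exact permutation tests used log2(CPM + 0.1). Alternatives were DESeq2 1.42.0, RLE, other count filters, a replicate block, non-robust estimation, limma-trend on log2 TPM with pseudocounts of 1 and 0.1, and each library left out. Functions were tested on simulated data. Gene positions, overlaps and transcript windows came from a GENCODE annotation of GRCm38, and promoters from RefSeq (GRCm38.p6). A further motif that was searched is not reported here.

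Per-library values are given for genes called, at an unadjusted p under 0.05, without overlap between genotypes, or highest in TPM within a role, and for Pstpip2 and P2rx4, chosen after their values were seen. The 38 genes and the other lists were chosen with earlier results of these data known. Other experiments of the study were not analysed here.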

Additional observations from a re-analysis of the deposited data

How the results depend on the processing

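Pstpip1 was the 1 gene of the group called under each of the 15 alternatives. The number of genes called in the whole table was 68, and it was 302 with DESeq2, 120 without a count filter, 41, 34 and 36 with limma-trend on TPM (pseudocount 1, pseudocount 0.1, and 1 without filter) and between 22 and 299 with 1 library left out. The median log2 fold change of the group was 0.047, 0.048 and 0.042 on the same TPM settings, where the median of all genes was 0.063, 0.067 and 0.046, and between -0.048 and 0.002 with 1 library left out. Pkm was not called on TPM (-0.609, -0.61 and -0.609; adjusted p 0.112, 0.114 and 0.183), and its estimate was between -0.775 and -0.622 with 1 library left out. Genes of the group at an unadjusted p under 0.05 numbered between 4 and 12 (between 6.45% and 13.3% of all genes), and partner genes called between 1 and 3, with 1 library left out. Birc3 turned to 0.041, 0.042 and 0.041 on TPM and ranged between -0.103 and 0.057 with 1 library left out, and Nlrp3 ranged between -0.285 and 0.031. The cause was not tested.

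Libraries with the same replicate number correlated at 0.0797, 0.141 and 0.0188 in their deviations from the genotype means, so the numbers were not taken to pair the mice, although 5 of 6 libraries correlated best with their own number. With a replicate block, 82 genes were called, and 8 genes of the group had an unadjusted p under 0.05, against 11% of all genes. On log2(TPM + 1), Naip5, Ninj1 and P2rx7 no longer had an unadjusted p under 0.05, and Txnip and Xiap did. The libraries of Naip5, Ninj1 and Ripk1, apart in CPM, overlapped between genotypes in TPM. Fold changes on log2(TPM + 1) understate changes of low genes. With at most 26 counts per library, Naip1 is also limited by counting error.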
